A study of Mus musculus with 4 samples.

Results

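Open chromatin inside genes was examined in sorted palatal mesenchyme of mouse embryos, over the regions that were accessible in every library. Peaks of the 4 ATAC-seq lists on chromosomes 1 to 19 and X were merged into regions where they shared at least 1 bp. A region was kept when all 4 libraries held a peak in it, its merged width was under 2000 bp, and its midpoint lay inside a protein-coding gene and more than 1 kb from every gene end. The presence of a peak in all 4 lists therefore selected the members, and that presence is not a result. There were 4621 such regions, called members here, among 18904 regions found in all 4 libraries, which is 24.4%, and among 39843 merged regions in all.

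ATAC-seq uses a transposase that inserts adapters into open DNA. Green fluorescent mesenchymal cells of the palate were sorted at E14.5, and 50000 cells were pooled per group. The 2 mutant libraries were Shox2Cre/-;Nkx2.5F/F;R26RmTmG, and the 2 control libraries were Shox2Cre/+;Nkx2.5F/F;R26RmTmG. The comparison is thus of no intact Shox2 allele against 1 intact allele, with Cre placed at Shox2, a homeobox gene of the anterior palate. Both genotypes carried 2 floxed copies of the homeobox gene Nkx2-5, which Cre can cut, so the controls were not wild type, and the R26RmTmG reporter turns green in cells that have seen Cre. Whether the libraries of 1 genotype are separate pools is not stated in the labels, so p-values measure only the spread between these libraries, which may be technical. The deposited lists held 29217 and 31821 peaks on these chromosomes in mutants 1 and 2, against 30225 and 22959 peaks in controls 1 and 2. Members held 15.9% and 14.6% of the peaks in mutants 1 and 2, against 15.4% and 20.2% in controls 1 and 2. Control 2, which had the fewest peaks, stood apart with the highest share. Neither Shox2 nor Nkx2-5 held a member.

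Accessible DNA within a gene body can be of several kinds. A gene often has alternative promoters, so that a shorter transcript starts inside the span of the longest one, and CpG-rich promoters bound by SP, KLF, ETS and NRF1 factors are open in most cell types. Introns also carry enhancers, which bind tissue factors and may act on the host gene or on a neighbour, and introns can hold microRNA genes.

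The 200 bases before 5 starts that lie inside their own gene and inside a member are printed first, because they show how different such starts are in sequence. They are RefSeq promoter sequences of GRCm38.p6, the same build as mm10, on the + strand and 5′ to 3′. Trim45 at chr3:100922293-100922492 encodes a tripartite-motif ubiquitin ligase and is the start with the strongest member. Nr4a1 at chr15:101266646-101266845 encodes an orphan nuclear receptor induced as an immediate early gene. Pax9 at chr12:56695271-56695470 encodes a paired-box factor needed for palate development in the mouse. Ltbp1 at chr17:75178581-75178780 encodes a matrix protein that binds latent TGF-beta. Egr2 at chr10:67537730-67537929 encodes an immediate early zinc finger factor. Capitals mark matches, on either strand, to any of 24 short motifs.
Trim45: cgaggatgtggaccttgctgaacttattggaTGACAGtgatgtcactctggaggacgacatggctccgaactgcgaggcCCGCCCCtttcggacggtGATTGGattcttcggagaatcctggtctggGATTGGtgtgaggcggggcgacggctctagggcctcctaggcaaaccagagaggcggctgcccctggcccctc
Nr4a1: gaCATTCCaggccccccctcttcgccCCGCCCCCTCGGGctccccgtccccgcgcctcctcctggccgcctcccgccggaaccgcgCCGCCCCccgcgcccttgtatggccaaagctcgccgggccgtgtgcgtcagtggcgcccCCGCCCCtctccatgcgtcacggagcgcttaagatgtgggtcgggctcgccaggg
Pax9: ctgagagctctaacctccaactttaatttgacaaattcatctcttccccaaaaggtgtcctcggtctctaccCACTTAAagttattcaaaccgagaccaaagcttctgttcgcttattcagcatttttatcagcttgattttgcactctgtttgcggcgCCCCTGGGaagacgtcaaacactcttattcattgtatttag
Ltbp1: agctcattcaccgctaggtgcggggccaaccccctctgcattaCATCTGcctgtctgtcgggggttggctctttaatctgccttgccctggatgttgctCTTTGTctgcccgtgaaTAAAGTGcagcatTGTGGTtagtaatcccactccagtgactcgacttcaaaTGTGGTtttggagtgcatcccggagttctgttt
Egr2: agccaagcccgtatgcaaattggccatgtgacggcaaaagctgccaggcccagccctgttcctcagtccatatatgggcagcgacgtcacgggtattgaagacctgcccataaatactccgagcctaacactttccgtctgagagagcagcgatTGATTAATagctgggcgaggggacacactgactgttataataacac
The Trim45 stretch held 2 CCAAT boxes (CCAATC, read as GATTGG on the other strand), 1 SP and KLF match (GGGGCGG, read as CCGCCCC) and 1 MEIS and TGIF match. The Nr4a1 stretch held 3 SP and KLF matches, 1 TEAD match, and a CTCF core match and an EBF match that overlap one of the SP and KLF matches. The Pax9 stretch held 1 NKX match and 1 EBF match. The Ltbp1 stretch held no SP and KLF match, but 2 RUNX matches (TGTGGT), 1 SOX match, 1 NKX match and 1 E-box of Twist factors. The Egr2 stretch held 1 PBX match. GC content over the 300 bases around the start was 64.3% for Trim45, 72.3% for Nr4a1, 47.0% for Pax9, 50% for Ltbp1 and 56.0% for Egr2. A match describes letters only, and no binding was measured.

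Peak strength was given as a rank percentile, the place of a region by the authors' deposited −log10 p among the 18904 shared regions of the same library, with 100 the strongest. The Trim45 member ranked 99.89 and 99.94 in mutants 1 and 2, against 99.96 and 99.98 in controls 1 and 2. The Ltbp1 member lay 173 kb from the nearest gene end and ranked 90.4 and 91.0 in mutants 1 and 2, against 87.6 and 84.8 in controls 1 and 2. The Nr4a1 member ranked 83.3 and 81.6 in the mutants, against 86.6 and 81.1 in the controls. The Pax9 member ranked 79.8 and 83.7 in the mutants, against 78.8 and 84.6 in the controls. The Egr2 member ranked 72.2 and 68.0 in the mutants, against 78.4 and 71.1 in the controls. Of these 5 members, the genotypes did not overlap at Ltbp1, where both mutants were higher, or at Trim45, where both mutants were lower by a margin of 0.0212 points, and they overlapped at the other 3.

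Members lay mostly deep inside their genes and were weaker than shared regions at gene ends. Their median width was 1066 bp, with quartiles of 881 and 1308 bp, and their median distance from the nearest gene end was 18.9 kb, with quartiles of 4.72 and 56.8 kb. In all they covered 5.15 Mb. A single host gene held 4566 of them, 53 lay in 2 overlapping genes and 2 in more. At the width limit, the widest member was a 1999 bp region in Uck2, and the narrowest region left out for width was a 2001 bp region in Vapa. At the distance limit, the nearest member lay 1003 bp from a gene end, in Vldlr, and the nearest region left out lay 997 bp away, in Apc.

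The authors' median fold enrichment of members was 6.89 and 7.29 in mutants 1 and 2, against 7.45 and 6.75 in controls 1 and 2. For the 9192 shared regions of the same width class at gene ends it was 8.52 and 8.86 in the mutants, against 9.08 and 8.27 in the controls. Members were lower than gene ends in all 4 libraries, by a mean of 1.59 (difference -1.59, range -1.63 to -1.52, 2-sided exact sign-flip permutation p = 0.125, the smallest that 4 libraries allow). For the 4453 shared regions outside genes the median was 7.08 and 7.47 in the mutants, against 7.58 and 6.83 in the controls. Members were lower than these in all 4 libraries too, by a much smaller amount (difference -0.142, range -0.183 to -0.0784, exact permutation p = 0.125). By rank percentile the second comparison ran the other way, with members 6.50 points above regions outside genes in 4 of 4 libraries (exact permutation p = 0.125). Members also had wider peaks than regions outside genes, by 55.0 bp in the median.

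Members that hold an annotated coding start inside the gene were strong, and members that hold no start were weak. RefSeq promoter windows covered a host gene of 3698 members, which is 80.03%. Of these, 1114 members (30.1%) held a start of a coding gene that lies inside that gene's span and more than 1 kb from every gene end, called an internal start here. Another 56 (1.51%) held a coding start at a gene end, 63 (1.70%) held a start of a noncoding gene only, and 2465 (66.7%) held no start. The table of starts is not complete and has none on chromosome 18. The last class can thus include members at starts the table lacks.

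Members with an internal start had median ranks of 61.0 and 61.2 in mutants 1 and 2, against 62.4 and 62.4 in controls 1 and 2. Members with no start had median ranks of 28.8 and 29.3 in the mutants, against 28.7 and 28.0 in the controls. Members with an internal start thus stood between the other members and the gene ends, whose medians were 67.4 and 67.2 in the mutants, against 67.5 and 67.5 in the controls. The difference between members with an internal start and members with no start was 33.0 points, present in 4 of 4 libraries (range 31.9 to 34.4, exact sign-flip permutation p = 0.125, the smallest possible). Their fold enrichment differed by 1.22 and their peak width by 287 bp, again in 4 of 4 libraries. Starts also lay nearer gene ends, at a median of 5.33 kb for members with an internal start and 29.3 kb for members with none. Among members over 10 kb from every gene end, 406 held an internal start and 1846 none, and the rank difference was 27.9 points. The share of members with an internal start was 8.94% of the 1275 members with a mean rank under 20 and 64.1% of the 449 members with a mean rank of 80 or more. Unlike the share given above, these are over all members, and those whose host lacks a start window count as holding none.

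**Figure D1:**
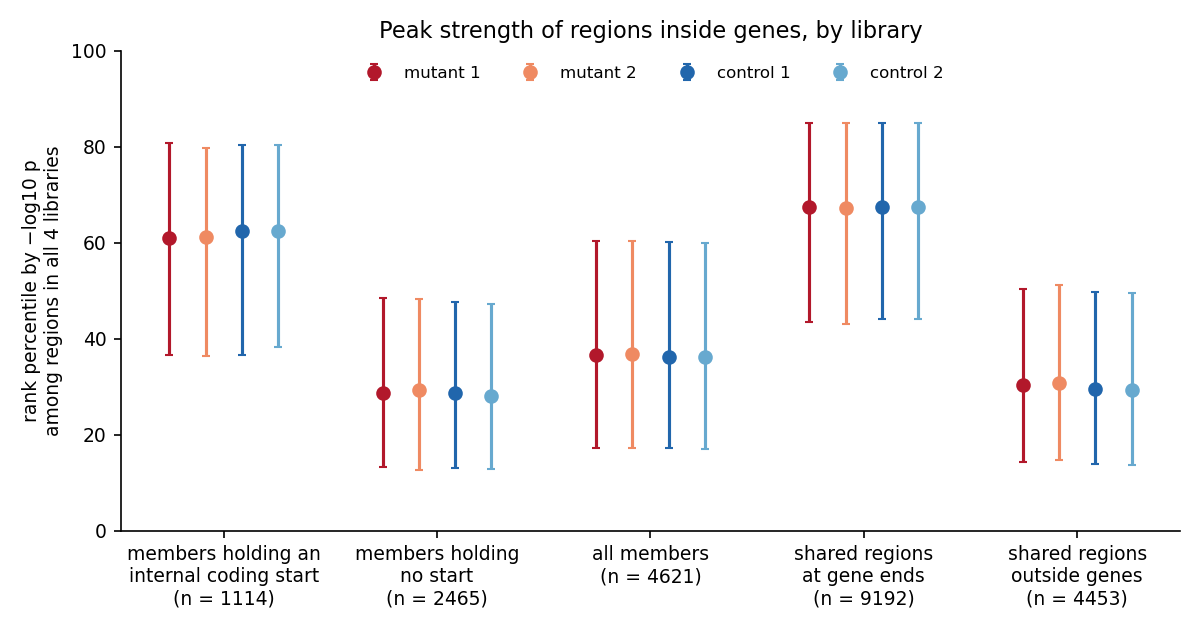
Median rank percentile by −log10 p (vertical axis, 0 to 100) of members with an internal coding start, members with no start, all members, and shared regions at gene ends and outside genes, in 2 mutant (red) and 2 control (blue) libraries. Points are medians and bars run from the lower to the upper quartile over regions; members with an internal start sit at 61.0 to 62.4, members with no start at 28.0 to 29.3, and the 4 libraries of each class lie close together.

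Along the gene, members with an internal start gathered near the gene's own start, while members with no start were spread almost evenly. The position was measured in 3220 members with a single host of 20 kb or more and a known strand. The 10% of the gene nearest its start held 17.7% of these members, and the 10% nearest its end held 7.61%. Of the 872 members with an internal start, 37.8% lay in the 10% nearest the start and 1.72% in the 10% nearest the end. Of the 2248 members with no start, 8.54% and 9.92% lay in those parts. Regions inside genes that were found in 1 or 2 libraries (4761 regions) showed 7.67% and 9.83%. The spread of members with no start along the gene was thus close to that of regions seen in few libraries. Regions within 1 kb of a gene end are left out by construction, which lowers both outer parts. The positions of all annotated internal starts along their genes were not measured. Whether internal starts inside members lie nearer the gene start than annotated internal starts in general was thus not tested.

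**Figure D2:**
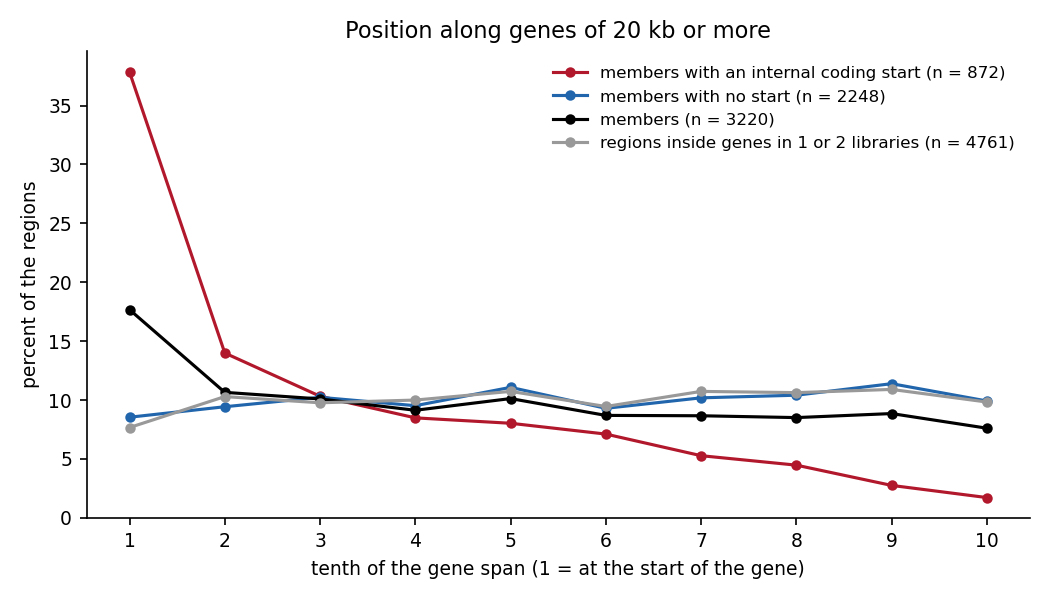
Share of regions (vertical axis, percent) in each 10% of the host gene from its start (left) to its end (right), for genes of 20 kb or more. The line of members with an internal coding start falls along the gene from 37.8% to 1.72%, and the lines of members with no start and of regions in 1 or 2 libraries stay between 7.67% and 11.4%.

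The starts inside members were rich in GC and CpG. The table gave 3881 internal starts, of which 1299 (33.5%) lay in members, 526 in other regions and 2056 (53.0%) under no peak of any library. Median GC content of the 300 base windows was 62.0% at starts inside members, against 49.8% at internal starts with no peak and 53.0% at all 32619 starts of the table. The ratio of observed to expected CpG had a median of 0.735 inside members, against 0.238 at starts with no peak and 0.387 at all starts. It was above 0.6 at 69.7% of starts inside members, against 8.61% of those with no peak and 36.0% of all starts.

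Of the 24 short motifs, the SP and KLF motif showed the widest difference. The SP and KLF motif (GGGGCGG) was in 43.0% of windows inside members, against 9.82% of windows with no peak and 23.3% of all windows. The ETS motif (CCGGAAG) was in 13.9%, against 2.58% with no peak and 8.92% of all. The CTCF core (AGGGGGC) was in 17.6%, against 8.46% with no peak and 10.7% of all. The CCAAT box (CCAATC) was in 20.1%, against 12.8% with no peak and 16.2% of all. The EBF motif (CCCNNGGG) was in 22.1%, against 14.3% with no peak and 13.8% of all. NRF1 and CREB motifs were also more common inside members than at starts with no peak, and the other motifs were less common. The SOX motif (ACAAAG) was in 13.5%, against 23.6% with no peak and 18.7% of all. The homeodomain core TAATTA, which Shox2 and many related factors can bind, was in 2.46%, against 5.79% with no peak and 5.25% of all. RUNX (TGTGGT) was in 11.9%, against 20.8% with no peak and 16.6% of all, and the motif AGATAA of GATA factors in 5.54%, against 14.3% with no peak and 11.2% of all. Both strands were searched, motifs can overlap one another, and windows were not matched for GC, so the part of base composition in these shares was not tested. Members with no start were not searched, because no genome sequence was used here.

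**Figure D3:**
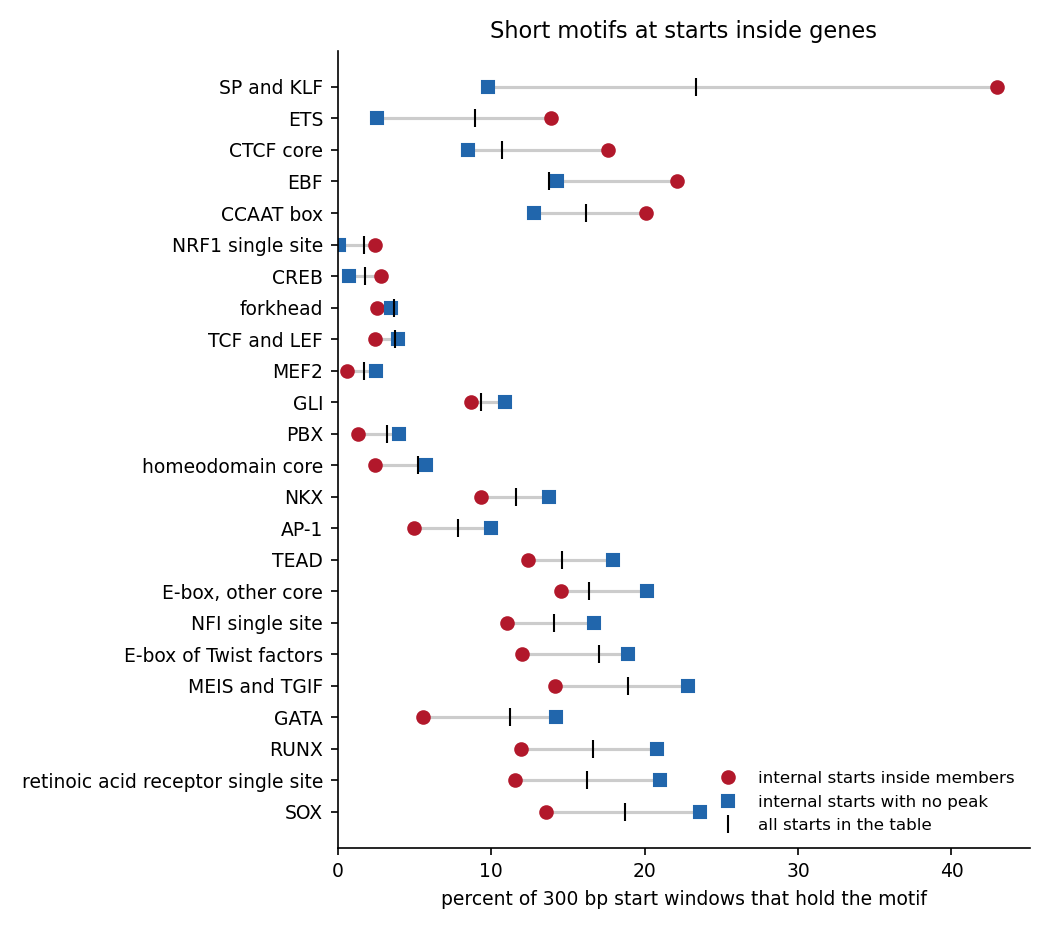
Share of 300 base start windows (horizontal axis, percent) that hold each of 24 short motifs, for internal starts inside members (red circles), internal starts with no peak (blue squares) and all starts in the table (black ticks). SP and KLF, ETS, CTCF core, EBF, CCAAT box, NRF1 and CREB are more common inside members, and the other motifs are less common there.

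Host genes were long. Members lay in 3287 of 21631 protein-coding genes, a share of 15.2%, and the median length of these hosts was 74.1 kb, against 17.3 kb over all genes. The share of genes with a member was 1.01% among genes under 5 kb and 79.3% among genes over 500 kb, and it was 55.7% (1352 of 2427) among genes over 100 kb. The rule leaves out places within 1 kb of a gene end, so the shortest genes could hold few members or none. Part of the low share among genes under 5 kb was thus set by construction. Per Mb of whole gene length, ends included, members were most frequent in genes of 5 to 10 kb, with 6.50 per Mb. They were least frequent in genes over 500 kb, with 2.79 per Mb. A single member was held by 2470 hosts, and 139 hosts held 4 or more. Macrod2, Pde4d and Tenm3 held 12 each, Dlg2 and Frmd4a 10 each, and Aopep held 9. Pde4d encodes a cAMP phosphodiesterase, Tenm3 a teneurin and Dlg2 a synaptic scaffold. Per length, the densest of the genes with 4 or more were Synpo, an actin-binding protein gene with 6.04 members per 100 kb, and Pfkfb3, a glycolytic regulator gene with 4.84 per 100 kb. Tenm3 and Dlg2, long genes with known roles in neurons, were named for their number of members and held 0.925 and 0.507 per 100 kb. Over all chromosomes members numbered 4.49 per Mb of gene span, and genes over 500 kb held 2.79 per Mb. The density in Dlg2 was close to the first value and above the second, and that in Tenm3 was well above both. Naming genes by their number of members favours dense ones. Whether genes of neurons as a group hold more members was not tested. In bulk lists of this kind, accessibility in few of the sorted cells and weak accessibility in many cannot be told apart.

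**Figure D4:**
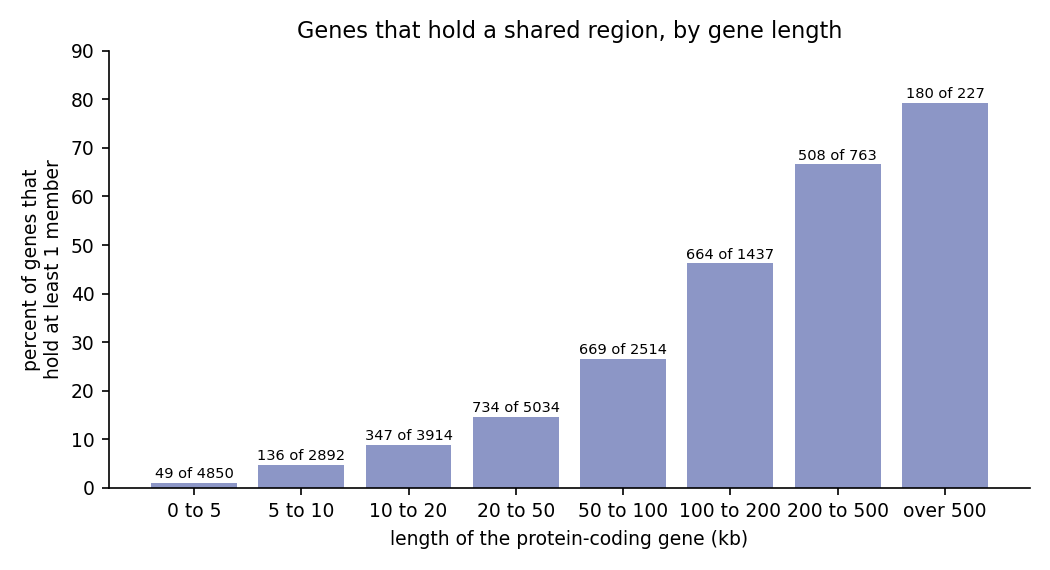
Share of protein-coding genes that hold at least 1 member (vertical axis, percent) by gene length in kb (horizontal axis), with the numbers of genes above the bars. The share is 1.01% for genes under 5 kb and 79.3% for genes over 500 kb. Places within 1 kb of a gene end are left out by construction, which lowers the share among the shortest genes.

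Because length sets much of this, each gene list was read against the number of genes expected from the length classes of its genes. Axon guidance genes had a member in 19 of 27 genes, against 14.4 expected, with 44 members in all. Robo2 and Robo1, receptors of Slit ligands, held 8 and 5 members, and the ligand genes Sema3a and Slit3 held 4 each. Palate mesenchyme transcription factors had one in 19 of 43 genes, against 13.6 expected, with 37 members. Nfia and Nfix, nuclear factor I genes, held 7 and 4, Runx1t1, a corepressor gene, held 5, and Zfhx3, a zinc finger homeobox gene, held 3. WNT pathway genes had one in 15 of 37 genes, against 9.81 expected, with 3 members each in the receptor genes Ror1 and Ror2 and in the effector Tcf7l1. Chondrogenic genes had one in 7 of 14, against 3.83 expected, with 6 members in Trps1 and 3 in Sox5. Notch pathway genes had one in 5 of 15, against 3.23 expected, with 7 in the coactivator gene Maml2 and 2 in the ligand gene Jag1. Collagen and matrix genes had one in 8 of 34, below the 9.90 expected. BMP pathway genes had one in 4 of 20, against 4.29 expected, among them the short ligand gene Bmp4.

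AP-1 and immediate early genes were the short-gene exception. Their median length was 7.42 kb, and 4 of 17 held a member, against 0.958 expected from length. These were Egr2, Jund, Maff and Nr4a1, and 3 of the 4 members held an internal start. Their median ranks were 81.1 and 78.1 in mutants 1 and 2, against 82.9 and 78.1 in controls 1 and 2, and none of the 4 separated the genotypes. The Jund member, the only one with no internal start, ranked 86.0 and 84.0 in the mutants, against 85.0 and 84.3 in the controls.

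The sorted cells were labelled palatal mesenchyme. Of 13 palate mesenchyme marker genes, 1 held a member, against 1.33 expected, so intragenic members say little about that label. Neuron markers held none (0 of 6 genes, 1.89 expected) and Schwann and glia markers held none (0 of 5 genes, 0.380 expected). Epithelium markers held members in 2 of 9 genes (1.94 expected), and blood and immune markers in Ptprc and Runx1 (2 of 7, 1.78 expected). The member in Ptprc, which encodes the leukocyte antigen CD45, ranked 62.7 and 66.3 in mutants 1 and 2, against 35.1 and 51.1 in controls 1 and 2. The genotypes did not overlap there. The part of other cell types in the results below was not tested.

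Between the genotypes the members as a whole hardly differed. Their median rank was 36.6 and 36.9 in mutants 1 and 2, against 36.3 and 36.2 in controls 1 and 2. The mean difference was 0.541 points (exact 2-sided permutation p = 0.333, the smallest that 2 libraries against 2 allow). It was -0.220 points with fold enrichment as the measure of strength and 0.0921 points without control 2, so its direction is not settled. The quartiles over members in mutant 1 were 17.3 and 60.5. Shared regions outside genes differed by 1.21 points and those at gene ends by -0.214 points. Both mutants ranked above both controls at 841 members (18.2%), against 17.6% of all shared regions. Both mutants ranked below both controls at 820 members (17.7%), against 18% of all shared regions. These shares were close to the background, and the other 2960 members overlapped between the genotypes. Members with an internal start were higher in 16.4% and lower in 19.2%, and members with no start in 18.3% and 17.9%. A gap of over 20 points separated the genotypes at 28 members with mutants higher (0.606%, against 0.286% of shared regions) and at 16 with mutants lower (0.346%, against 0.317%).  For a single member an exact test of 2 libraries against 2 cannot give a p under 0.333, so none was run.

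The 8 members with the widest gap in each direction were chosen by that gap, so their values are a description. None of the 16 held a start of the table, but the table lacks chromosome 18, so the member in Kctd1 could not have shown one. With mutants higher, the widest gap was in Pard3b, a cell polarity gene, where the member at chr1:62429656-62430357 ranked 42.2 and 37.1 in mutants 1 and 2, against 4.94 and 3.11 in controls 1 and 2. The member in Cdca7l ranked 51.3 and 43.5 in the mutants, against 11.5 and 14.4 in the controls. The member in Rora, a nuclear receptor gene, ranked 42.0 and 47.4 in the mutants, against 16.1 and 8.04 in the controls. Further members of this group lay in Lnp1, Tanc1 and Cped1.

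With mutants lower, the member in Rnf43, which encodes a ubiquitin ligase that restrains WNT receptors, ranked 4.34 and 0.770 in mutants 1 and 2, against 33.1 and 37.4 in controls 1 and 2. The member in Mid1, an X-linked gene mutated in a human syndrome with midline defects and known to span the pseudoautosomal boundary in C57BL/6 mice, ranked 4.002 and 4.097 in the mutants, against 31.7 and 32.6 in the controls. The member in the collagen gene Col15a1 ranked 2.45 and 6.10 in the mutants, against 38.2 and 33.5 in the controls. The other members of this group lay in Kctd1, Armc2, Scg3, Lonp2 and Rhbdd1. In all 16 the lower genotype ranked at most 30.2, among the weaker shared regions, and the peak was still called in every library.

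**Figure D5:**
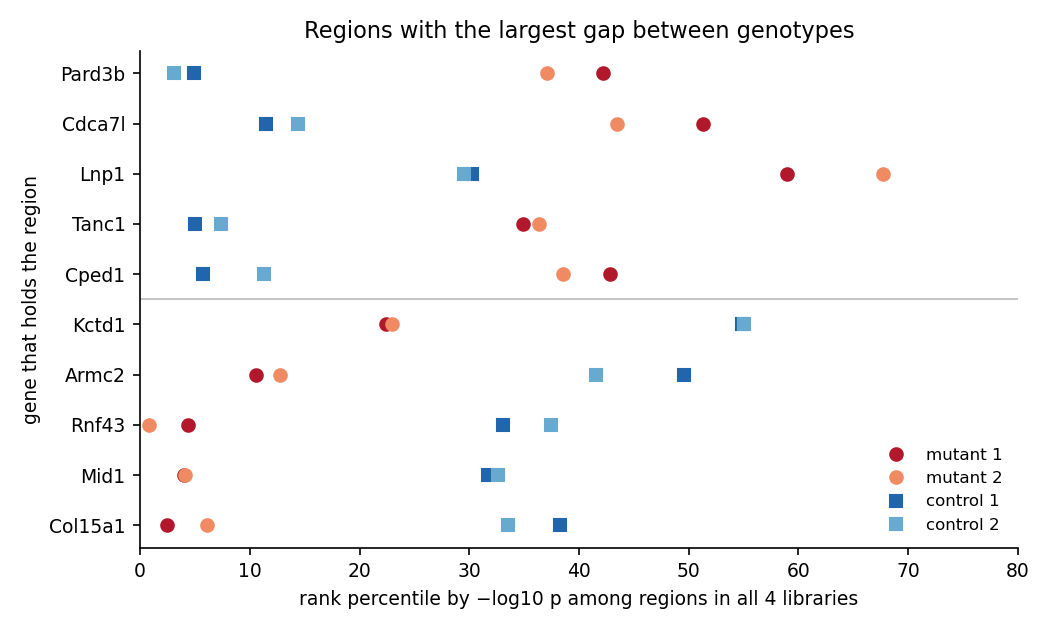
Rank percentile (horizontal axis) of the 5 members with the widest gap in each direction between genotypes, named by host gene, in 2 mutant (red circles) and 2 control (blue squares) libraries. Above the line both mutants are higher, as in Pard3b with 37.1 and 42.2 against 3.11 and 4.94, and below it both mutants are lower.

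The strongest members were picked for a high rank in every library, which leaves little room for a rank difference between genotypes. The 10 with the highest lowest rank over the libraries lay in Cdk8, Filip1l together with Cmss1, Trim45, Zc3h7a, Pwwp2a, Pcmtd1, Uggt2, Ccna2, Stard13 and Gm33989. Their rank differences, mutant minus control, ran from -0.227 to 0.198 points, a span that this choice keeps small. Of the 449 members with a mean rank of 80 or more, both mutants were higher at 17.6% and lower at 14.7%. All shared regions gave 17.6% and 18%. Among the 10, those in Cdk8, Filip1l and Zc3h7a were narrow, at 781, 624 and 571 bp, held no start, and had fold enrichments of at least 21.1 in every library. The Cdk8 member had folds of 23.2 and 22.3 in mutants 1 and 2, against 24.1 and 21.9 in controls 1 and 2. The member in Ccna2, the cyclin A2 gene, lay 1.11 kb from a gene end and had ranks of 99.4 and 99.4 in the mutants, against 99.4 and 99.6 in the controls.

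Hedgehog pathway genes held 13 members in 6 of 14 genes, against 3.69 genes expected from length. Both mutants ranked above both controls at 5 of the 13 and below both at 5, against the 17.6% and 18% of all shared regions. All 3 members of Gli3, which encodes the main repressor-forming factor of the pathway, were among the 5 that were higher, and 3 of the 4 members of Gli2, which encodes its main activator, were among the 5 that were lower. The Gli3 member at chr13:15624213-15625299 ranked 60.03 and 48.5 in mutants 1 and 2, against 25.03 and 47.3 in controls 1 and 2. The other Gli3 members were weak, with ranks of 5.30 and 7.99 in the mutants against 1.81 and 0.579 in the controls, and of 10.1 and 14.2 in the mutants against 6.95 and 9.15 in the controls.

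The Gli2 member at chr1:118873295-118874098 ranked 19.97 and 35.9 in mutants 1 and 2, against 44.7 and 50.1 in controls 1 and 2. The Gli2 member at chr1:119033612-119034876 ranked 32.5 and 36.7 in the mutants, against 45.7 and 54.3 in the controls. The strongest Gli2 member ranked 86.0 and 88.0 in the mutants, against 90.3 and 89.1 in the controls, and the remaining one ranked 43.9 and 48.3 in the mutants, against 63.0 and 35.1 in the controls. In the receptor gene Ptch1 both members overlapped between the genotypes, and in the coreceptor gene Boc 1 member was higher and 1 lower. These genes were noticed by their values, so this is a description with no test, and the 2 controls of the Gli3 member just named lay farther apart than its gap between genotypes.

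Of the 139 genes with 4 or more members, 9 had every member on the same side by the mean of each genotype. This count has no test, no number expected without a genotype difference was computed, and the genes are a description of members picked by their values. Gli2 (mean difference -10.1 points), Lmo7 and Tnrc6a had all members lower in the mutants. Fmn1, Slc35f1, Pde1c, Adgrv1, Tmcc3 and Dchs2 had all members higher. The 4 members of Fmn1, the formin 1 gene, had median ranks of 23.6 and 23.9 in mutants 1 and 2, against 5.33 and 5.19 in controls 1 and 2, a mean difference of 15.3 points. The Fmn1 member at chr2:113707245-113708141 ranked 26.2 and 23.3 in the mutants, against 0.399 and 1.67 in the controls. Of 754 pairs of neighbouring members of the same host within 50 kb, 374 (49.6%) differed between genotypes in the same direction. Of 204 such pairs in different hosts, 120 (58.8%) did.

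Other listed genes held members on both sides. In Nfia 2 of 7 members were higher and 2 lower, and in Trps1, a zinc finger gene of chondrocytes, 1 of 6 was higher and 2 were lower. In Robo2 3 of 8 were higher and 1 was lower. In Rarb, a retinoic acid receptor gene, 2 of 7 were higher and 1 was lower. Of all shared regions, 17.6% were higher and 18% lower, and these small counts per gene have no test. The Sema3a member at chr5:13526837-13527709 ranked 35.1 and 53.6 in mutants 1 and 2, against 11.98 and 2.45 in controls 1 and 2. The Nfix member at chr8:84722579-84723894 ranked 57.9 and 33.8 in the mutants, against 13.2 and 25.3 in the controls. The Bmp4 member, at a noncoding start, ranked 16.3 and 37.4 in the mutants, against 32.1 and 16.8 in the controls, and so overlapped. The 2 members of the osteogenic regulator gene Runx2 overlapped as well.

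MicroRNA genes inside members included all 3 miR-199 loci of the table. Of 559 hairpins in the RefSeq table whose midpoint lay inside a protein-coding gene, 14 (2.504%) lay in members. Mir199a-2, Mir199b and Mir199a-1 lie in Dnm3, Dnm1 and Dnm2, the 3 dynamin genes, and were chosen after their values were seen. The family is known for its expression in mesenchyme. Mature sequences from RefSeq (GRCm38.p6) are shown because 3p products of different loci are the same in sequence, with the seed, bases 2 to 8, in capitals.
mmu-miR-199a-5p: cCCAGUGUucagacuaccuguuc
mmu-miR-199a-3p: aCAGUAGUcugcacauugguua
mmu-miR-199b-3p: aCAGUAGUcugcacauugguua
The member in Dnm3 at chr1:162216598-162217988 ranked 72.3 and 72.0 in mutants 1 and 2, against 66.7 and 72.8 in controls 1 and 2. The member in Dnm1 at chr2:32316949-32318642 ranked 52.9 and 49.3 in the mutants, against 69.2 and 56.7 in the controls. The member in Dnm2 at chr9:21496253-21497529 ranked 53.7 and 63.0 in the mutants, against 70.9 and 68.7 in the controls. The genotypes overlapped at Dnm3, and both mutants were lower at Dnm1 and Dnm2. This was not particular to the family. Most of the 14 hairpins, among them Mir1956 and Mir3086, lay in members where both mutants were lower, against 18% of all shared regions. In no member with a hairpin were both mutants higher.

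The summits of a member lay close together in every pair of libraries. Summits of libraries of the same genotype lay a median of 46.5 bp apart and those of different genotypes 46.25 bp apart (exact test over the 3 pairings, p = 1). The distance exceeded that at gene ends by 6.17 bp on average over the 6 pairs of libraries.

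By chromosome, members were least frequent on X, with 2.47 per Mb of gene span, against 4.49 over all chromosomes. On X both mutants ranked above both controls at 30.1% of 113 members and below both at 15.9%, while all shared regions of X gave 17.6% and 14.9%. On chromosome 19 both mutants were higher at 9.52% of 105 members and lower at 24.8%, while all shared regions there gave 13.1% and 22.3%. These chromosomes were picked for standing apart, and members of a chromosome share the same 4 libraries.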

How the data were processed

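The 4 ATAC-seq libraries were grouped by the genotype in the labels. The authors deposited 1 peak list per library in narrowPeak layout, in mm10 coordinates per the submitters' processing notes. The sources used here name no aligner or peak caller. The deposited values of each peak are the authors' score, their fold enrichment (a ratio), their −log10 p-value and their −log10 q-value. These were used only to rank and describe peaks within a library, except that medians of the authors' fold were set side by side over libraries. The lists hold no read counts, so depth and counting error are unknown.

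Peaks of the autosomes and X were merged at 1 bp or more of overlap with Python 3.11.15, pandas 2.3.3 and numpy 2.4.6. Where a library had several peaks in a region, the strongest was used. Regions were placed by their midpoint against 21631 protein-coding genes of GRCm38.p6, the assembly of mm10. Exons and introns were not told apart. Differences between genotypes used exact 2-sided permutation tests over libraries, and differences between classes of regions used exact sign flips over the 4 libraries. Regions, genes and starts are not replicates, and shares over them have no test. The number of genes of a list expected to hold a member is the sum, over its genes, of the share of all genes in the same length class that hold one.

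The members and the 27 gene lists, with 410 distinct genes, were chosen with earlier results of these data known. Members were named as the 10 with the highest lowest rank and the 8 with the widest gap in each direction, with up to 4 genes per list by number of members. The 9 genes with members all on one side, Shox2, Nkx2-5 and the 12 genes with most members were added, as were genes at the limits, on X or named for their values; a few genes these rules name are not reported here. The planned search for 24 motifs in members was not run, because no genome sequence was used; it was applied to the 300 base RefSeq start windows (32619 starts, 79.9% of coding genes), a choice made after the data were seen. The classes by annotated start and the microRNA loci were also chosen then. Merging, placing, ranks and tests were tested on simulated data.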

Additional observations from a re-analysis of the deposited data

How the results depend on the processing

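Across 9 other settings the median fold of members minus gene ends stayed between -1.86 and -0.781, members minus regions outside genes between -0.193 and -0.134, and the extra distance between summits between 2.33 and 7.67 bp. The rank difference between members with an internal start and members with no start stayed between 25.6 and 35.5 points over 10 settings, all chosen after the data were seen. With the upper 50% of each list, members numbered 1943 in 8.03% of genes, with 335 higher and 316 lower in both mutants. Leaving out 1 library at a time, and requiring the other 3, gave 4887 to 5954 members in 15.7% to 17.8% of genes, 1627 to 2022 higher and 1595 to 2038 lower, since 1 library against 2 separates more easily; the highest numbers came without control 2, the list with the fewest peaks. The median rank difference between genotypes was 0.0921 to 0.485 points in these runs and reversed to -0.220 points with fold enrichment as the measure of strength; the cause was not tested. A replicate block set mutant 1 against control 1 and mutant 2 against control 2. With it the median rank difference was 0.541 points (exact permutation p = 0.5), with 1208 members higher and 1184 lower in both pairs. Deviations of same-numbered libraries correlated at 0.0274 over the 18904 shared regions, with 2 pairs. Regions are not replicates, so this value cannot show whether same-numbered libraries shared a batch. The numbers are used only to name the libraries. Without chromosomes X and 19, chosen after the data were seen, 794 members were higher and 781 lower. The shares of all shared regions with the same orders were not computed under these other settings. The counts of higher and lower members given for them thus show nothing particular to members. The planned settings for motifs in members were not run, because no genome sequence was used. Read depth is unknown and limits every comparison of strength.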
